A study of Trichoderma asperellum with 9 samples.

Results

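The response of Trichoderma asperellum strain Ts93 to 0.5 mM BCS was examined by RNA-seq in 6 of the 9 libraries of the series. Ts93 is a wild-type strain of a filamentous soil fungus, and both groups are this strain. The 3 BCS libraries came from cultures labelled with 0.5 mM BCS, and the 3 control libraries from cultures labelled as control with no added agent named. The labels give no culture medium, exposure time or age of the cultures. The remaining 3 libraries, grown with 1 mM copper ions, entered only where their levels are set beside those of the other groups. Levels are given as FPKM, the fragments assigned to a model divided by its length in kilobases and scaled to the library's total. The comparison took the models that reached 1 FPKM in 3 or more of the 6 libraries, 7620 of 9396. Of the kept models, 248 reached that level in exactly 3 libraries, and 176 models just missed it with exactly 2.

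What BCS stands for is not written in the labels. Bathocuproine disulfonate, a chelator that binds copper outside the cell, commonly goes by these letters, and it is taken as background only. Copper is the redox cofactor of cytochrome c oxidase, of the copper-zinc superoxide dismutase and of multicopper oxidases such as laccases. In the yeast Saccharomyces cerevisiae, low copper is known to switch on the genes of high-affinity copper transporters and of plasma membrane metalloreductases through a copper-sensing transcription factor. Whether homologues of these genes moved in Ts93 could not be asked of these data, because the deposited table pairs its identifiers with no name, function or sequence and 0 of 9396 identifiers matched the reference table of T. asperellum FT101. The models are therefore described by level, size of change, length, spread and identifier. Those with a strain-specific number (prefix 93-3_5.6A) are called numbered models, and those with identifiers of the type of Novel01429 are called supplementary models.

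Library totals were recovered from the steps in which FPKM values increase. They lay between 12338460 and 14851276 reads in the BCS libraries and between 13198011 and 17142918 in the control libraries. Between 7371 and 7576 models reached 1 FPKM in a BCS library, and between 7455 and 7567 in a control library. Across models, log2 values correlated at 0.961 to 0.978 among the BCS libraries, at 0.961 to 0.971 among the control libraries and at 0.872 to 0.928 between the groups. BCS replicate 2 stood nearest to the controls. On the first principal component, which held 64.4% of the variance, it lay at 20.5, while the other BCS libraries lay at 54.0 and 41.6 and the controls between -44.3 and -33.1. The labels do not state whether replicate libraries were separate cultures, and p-values therefore reflect only the variation among these libraries, part of which may be technical. In bulk RNA, a change in every cell and a change in the share of cells in some state cannot be told apart.

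BCS raised 391 models and lowered 509 against the control (limma on log2(FPKM + 1), adjusted p under 0.05). Together these 900 models were 11.8% of those tested, with 5.13% higher and 6.68% lower with BCS. The balance of rises and falls depended on the libraries and the scale, with 366 rises and 356 falls without control replicate 1, 451 rises and 1085 falls without BCS replicate 2, and 412 rises and 437 falls on the TPM scale (FPKM rescaled to a fixed sum per library). At least 2-fold on the log2(FPKM + 1) scale, 348 models rose and 451 fell. At least 4-fold the numbers were nearly level, at 149 rises (1.96% of tested models) and 144 falls (1.89%), and at least 8-fold there were 70 rises and 50 falls. At least 32-fold there were 20 rises and 6 falls, and at least 64-fold 11 rises and 2 falls. All of these sizes are on that scale, where the added 1 shrinks the folds of models weak in either group. Counts by the ratio of mean FPKM would be larger at 32-fold and 64-fold. Among the called models the median log2 fold change was 1.67 for rises and -1.53 for falls, against -0.07 over all tested models. The values of the 3 BCS libraries and the 3 control libraries did not overlap for 2077 models, 27.3% of those tested, 995 of them higher and 1082 lower with BCS. All 900 called models were among them, as the call rests on the same values. The median standard error of a fold change was 0.27 log2 units.

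**Figure D1:**
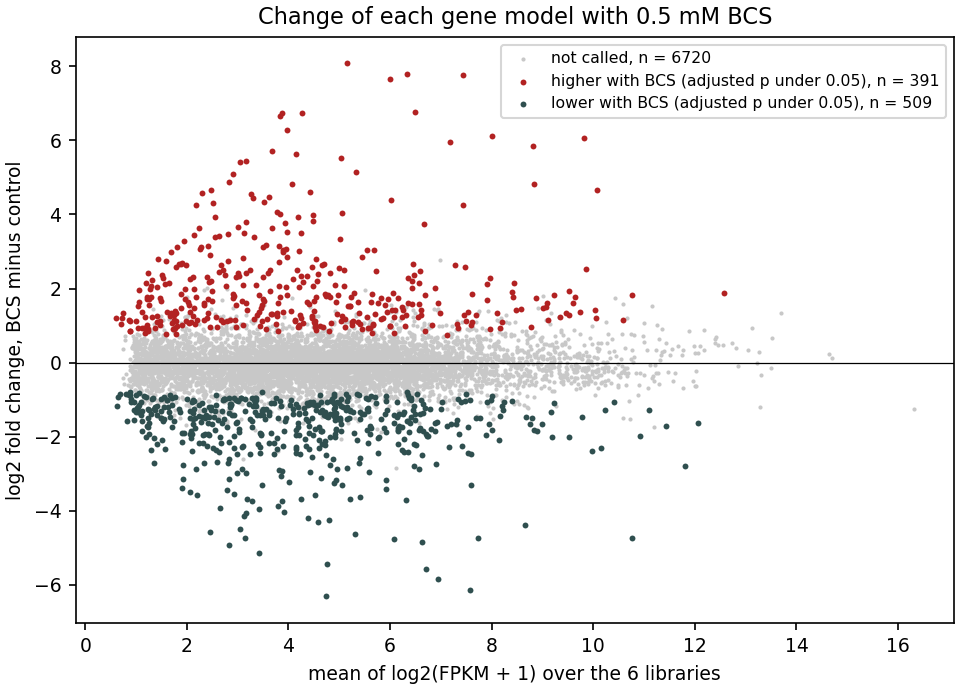
Each point is 1 of 7620 gene models, with its mean log2(FPKM + 1) over the 6 libraries on the horizontal axis and its log2 fold change, BCS minus control, on the vertical axis. The 391 called rises extend to 8.08 and the 509 called falls to -6.31, and called models occur at all levels.

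On the log2(FPKM + 1) scale, the largest rise was that of model 93-3_5.6A6772, whose coding length of 681 bases was recovered from the FPKM steps. Some called rises that were weaker in the control had larger ratios of mean FPKM. It had 548.4, 755.7 and 487.6 FPKM in the BCS libraries, against 3.45, 0.514 and 0.526 FPKM in the control libraries. Every BCS library lay far above every control library, and the control values were themselves uneven, with replicate 1 above the other two. The means were 597.2 ± 140.6 FPKM with BCS and 1.496 ± 1.69 FPKM in the control (SD, n = 3 each), a 399-fold ratio and a rise of 8.08 ± 0.41 on the log2 scale (SE; limma adjusted p = 4.4e-06). Model 93-3_5.6A0600 (coding length 732 bases) had 1228, 1315 and 1068 FPKM in the BCS libraries, against 6.62, 4.14 and 2.94 FPKM in the control libraries. Its BCS values lay close together, with a standard deviation of 0.15 log2 units over the BCS libraries. Its ratio of means was 263.5 and its log2 fold change was 7.81 ± 0.28 (SE; limma adjusted p = 7.1e-07). Both models stayed low in the copper libraries, at 1.31 to 2.29 FPKM for 93-3_5.6A6772 and 3.15 to 8.08 FPKM for 93-3_5.6A0600.

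On the same scale, the largest fall was that of model 93-3_5.6A1435, a short model with a coding length of 249 bases. Some called falls that were weaker in both groups had larger ratios of mean FPKM. It had 1.302, 2.43 and 2.39 FPKM in the BCS libraries, against 170.4, 245.5 and 313.9 FPKM in the control libraries. The control mean was 119 times the BCS mean, and the log2 fold change was -6.31 ± 0.29 (SE; limma adjusted p = 3.1e-06). The supplementary model Novel01429 had 15.3, 27.7 and 24.1 FPKM in the BCS libraries, against 1268, 1554 and 2133 FPKM in the control libraries. Its groups were likewise far apart, with a control mean 73.8 times the BCS mean and a log2 difference of -6.15 ± 0.30 (SE; limma adjusted p = 4.0e-06). The copper libraries differed between the 2 models. They held 37.4 to 61.9 FPKM of 93-3_5.6A1435, between the BCS and control values, and 2161 to 3221 FPKM of Novel01429, above every control value.

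**Figure D2:**
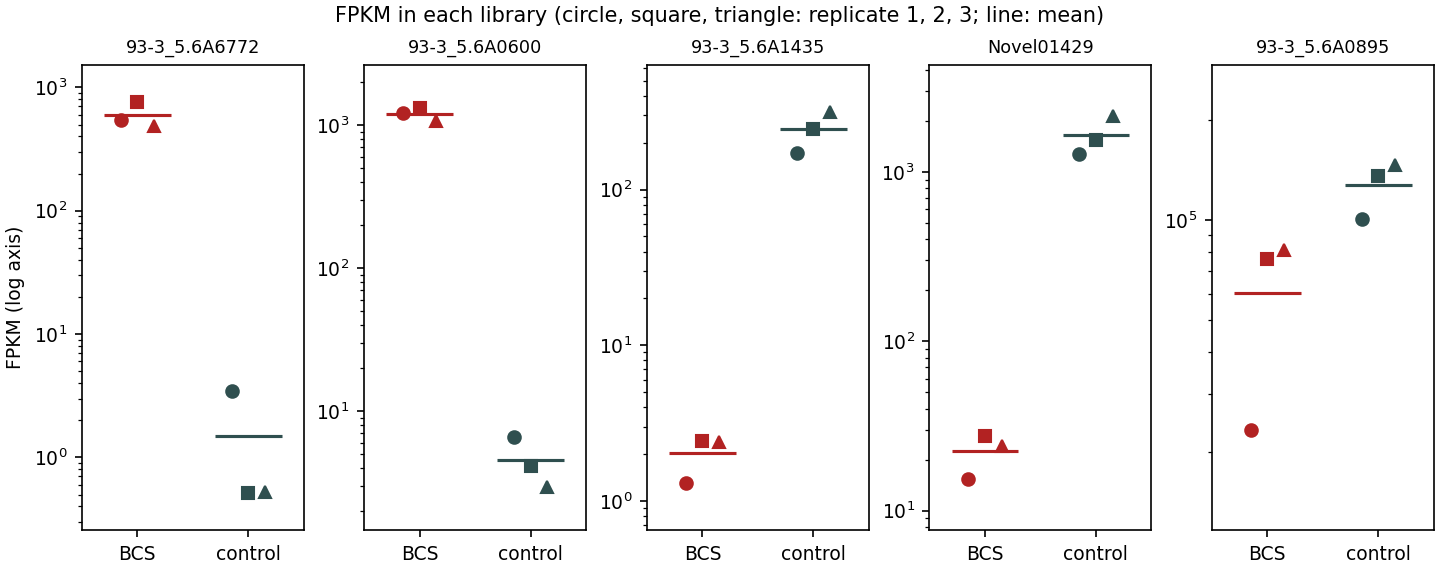
FPKM of the 2 largest rises, the 2 largest falls and the most abundant model in each library, on log axes that differ between panels; circles, squares and triangles are replicates 1, 2 and 3 and lines are group means. The BCS and control libraries do not overlap in any panel, and 93-3_5.6A0895 shows the widest spread with BCS, between 23328 and 81360 FPKM.

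The 20 largest rises combined low levels in the control with high levels under BCS. Their mean FPKM had a median of 255.9 with BCS and 2.62 in the control, and 7 of the 20 reached at least 1000 FPKM with BCS while none did in the control. The lowest BCS library stood at a median of 58.2 times the highest control library over these 20 models, and at 10.1 times in the model where the groups came closest. The 20 largest falls were strongly expressed in the control, with a median of 5.01 FPKM with BCS and 197.2 in the control. For these the lowest control library stood at a median of 13.9 times the highest BCS library, and 5.57 times at the closest. Agreement within groups differed between the sets. Over the 20 rises the highest BCS library was at a median of 1.57 times the lowest, against 3.21 times among the controls. Over the 20 falls these ratios were 2.61 with BCS and 1.98 in the control, so in both sets the libraries were more even in the group with the higher level.

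A set of 15 of the 7620 tested models was close to absent in the control, with at least 5 FPKM in all BCS libraries and below 1 FPKM in all control libraries. Their BCS values ranged from 5.97 to 430 FPKM and no control value exceeded 0.931 FPKM. None of them was listed at 0 in all 3 control libraries. The opposite pattern, at least 5 FPKM in all control libraries and below 1 in all BCS libraries, was found in 8 models, whose control values ranged from 8.12 to 57.9 FPKM. In the copper libraries, 12 of the 15 were below 1 FPKM throughout and none was at 5 FPKM or more throughout, while all 8 of the others were at 5 FPKM or more in every copper library. Both sets were chosen by their control levels, so copper levels near the control follow in part from the choice. Models like these pass the filter on low values through 1 group alone. There were 73 such models through BCS, of which 58 were called higher, and 77 through the control, of which 54 were called lower, so these calls follow in part from how the models were kept.

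The called models held different parts of the transcript pool in the BCS and control libraries. On the TPM scale, the 391 rises took 10.4%, 8.24% and 7.40% of the pool in the BCS libraries, against 1.92%, 1.64% and 1.76% in the control libraries. The 509 falls took 1.74%, 2.95% and 2.15% in the BCS libraries, against 7.84%, 7.36% and 10.9% in the control libraries. Both sets were chosen on these values, so the shares describe their weight and are no further support. In the copper libraries the same rises took 1.37% to 1.61% and the same falls 8.09% to 9.77%, below the range of the control libraries for the rises and within it for the falls.

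**Figure D3:**
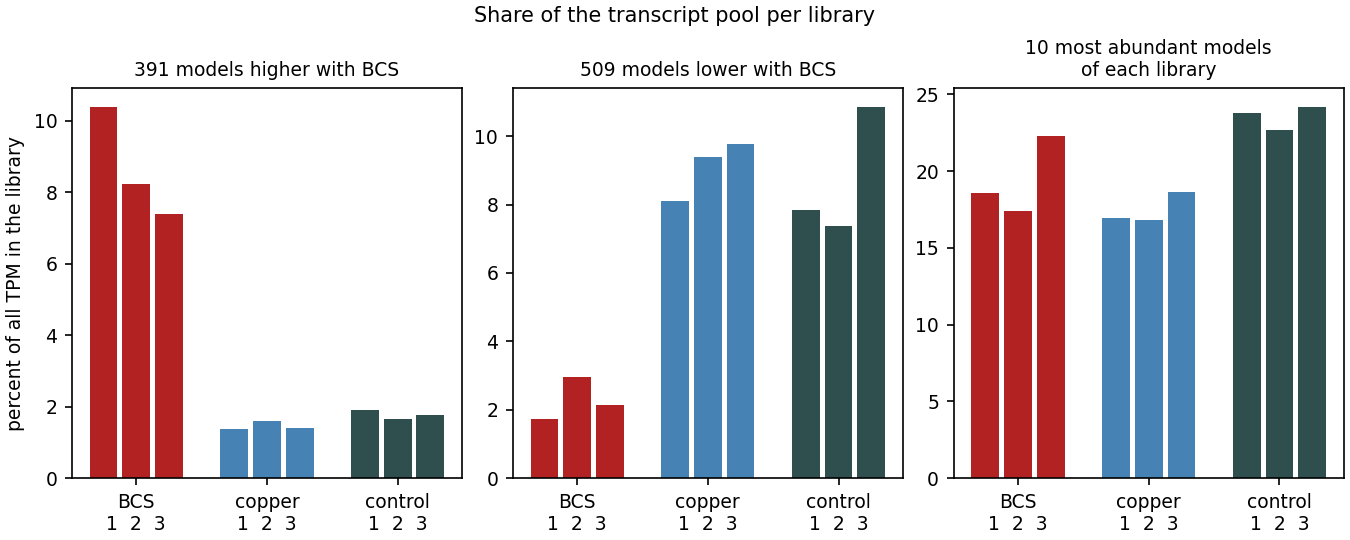
Percent of all TPM in each library taken by the models called higher, the models called lower and the 10 most abundant models of that library; each bar is 1 library, with replicates 1, 2 and 3 in order within a group. The called rises take 7.40% to 10.4% with BCS and at most 1.92% elsewhere, and the 10 most abundant models take less in every BCS library than in any control library.

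The 10 most abundant models of each library held a smaller share of the pool with BCS than in the control, as they did with copper. They took 18.6%, 17.4% and 22.3% of TPM in the BCS libraries, against 23.8%, 22.7% and 24.2% in the control libraries. The groups did not overlap, and the means were 19.4 ± 2.54% with BCS and 23.5 ± 0.781% in the control (SD, n = 3 each; exact permutation test, two-sided p = 0.10, the smallest that 3 against 3 libraries can give). Over the 100 most abundant models the shares overlapped, at 47.6 ± 3.92% with BCS and 48.7 ± 0.654% in the control (exact permutation test, two-sided p = 0.90, n = 3 each). In the copper libraries the 10 most abundant models took 17.0%, 16.8% and 18.6%, and the 100 most abundant 40.1% to 42.8%. Both lay below every control library, so the smaller share of the 10 was not particular to BCS. The difference between BCS and control in the share of the 10 rested on the most abundant model over the 6 libraries. Its mean share fell by more than that of the 10 together, and the rest of the 10 took no smaller share on average with BCS. Model 93-3_5.6A0895 (coding length 291 bases) took 2.12%, 6.81% and 7.11% of TPM in the BCS libraries, against 8.63%, 11.3% and 12.7% in the control libraries. Its FPKM was lower in every BCS library than in any control, but BCS replicate 1 lay far below the other BCS libraries and the difference did not pass the test, its log2 difference being -1.26 ± 0.71 (SE; limma adjusted p = 0.33). The copper libraries held 5.23% to 6.60%, within the range of the BCS libraries.

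Most of the strongly expressed models were the same in both groups. Of the 100 models with the highest mean FPKM with BCS, 73 were also among the 100 highest in the control. Of the 100 highest with BCS, 13 were called higher and 2 lower, and 4 ranked below the first 1000 in the control. Of the 100 highest in the control, 1 was called higher and 12 lower, and 2 ranked below the first 1000 with BCS. Over all tested models, 5.13% were called higher and 6.68% lower. Ranking by the BCS mean favours models that rose and ranking by the control mean those that fell, so nothing is read from these counts.

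Calls occurred across the whole range of levels. When the tested models were split into 5 classes of equal size by mean log2 level over the 6 libraries, 7.48% rose and 8.46% fell in the weakest class (0.516 to 5.20 FPKM). That class held 140 of the 150 models that passed the filter through 1 group alone, and without them 4.55% of its models rose and 5.64% fell. In the class of 32.7 to 82.6 FPKM, 3.74% rose and 5.05% fell, the lowest shares of the 5 classes. The strongest class (82.7 FPKM and above) had 4.66% rises and 5.91% falls. In the class of 13.9 to 32.6 FPKM, 4.53% rose and 7.15% fell, so the weakest class did not stand out once those models were left out (a setting chosen after the data were seen). The median log2 fold change lay between -0.11 and -0.03 in every class, close to that over all models.

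Supplementary models were called more often than numbered ones in either direction. Of 1330 supplementary models, 6.99% rose and 9.62% fell with BCS, while of 6290 numbered models 4.74% rose and 6.06% fell. Numbered models were likewise split into 5 classes by recovered length. That length was checked only for models with at least 50 reads and may be too short for weaker ones. The shortest class (115 to 675 bases) had more rises than falls, with 77 rises and 71 falls. In the other classes falls were more numerous, from 47 rises and 87 falls at 678 to 996 bases to 51 rises and 54 falls at 1833 bases and above. Among supplementary models, the share of falls was highest at 1158 to 1742 bases, where 15.4% of 266 models fell and 6.77% rose. These shares are descriptions over models, which are not independent replicates.

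The 3 BCS libraries differed in how far they moved from the control. Over the 391 rises, the median log2 difference from the control mean was 1.93 in BCS replicate 1, 1.48 in replicate 2 and 1.55 in replicate 3. Over the 509 falls it was -1.82, -1.14 and -1.63 in the same order. Over all tested models it was -0.22, 0.16 and -0.17, so BCS replicate 2 stood higher than the others over the whole table. Such a shift by itself brings falls nearer to the control and moves rises away from it. The values for rises and falls were not adjusted for it. BCS replicate 2 was the library nearest to the controls for 392 of the 509 falls and for 177 of the 391 rises. The largest rises ran the other way, since BCS replicate 2 held the highest value of the group in 14 of the 20 largest. Spread within groups was wider with BCS, with a median standard deviation of 0.33 log2 units against 0.25 in the control, and 59.9% of models varied more with BCS. These standard deviations were not adjusted for shifts of whole libraries either, which by themselves can widen them.

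Each BCS library was then set against calls that it had not entered. Without BCS replicate 1, the other libraries called 244 rises and 277 falls, and the library left out lay beyond all 3 controls in the same direction for 239 and 276 of them. Without BCS replicate 3, they called 284 rises and 306 falls, and the library left out lay beyond all controls for 282 and 303 of them. For BCS replicate 2 the shares differed by direction, a difference that was not tested. The other libraries called 451 rises and 1085 falls without it, and it lay beyond all controls for 408 of the rises (90.5%) but only 730 of the falls (67.3%). Its median change was 76.7% of that of the other BCS libraries for the rises, on the log2 scale, and 40.0% for the falls. Over all tested models its median change was 0.16, against -0.20 for the other BCS libraries. The shares of BCS replicate 2 were not adjusted for that shift, which by itself raises those of the rises and lowers those of the falls. For all 7620 models, taking the direction from the other BCS libraries, the library left out lay beyond all controls for 60.9% of models with replicate 1, 39.3% with replicate 2 and 58.7% with replicate 3. All of these shares use the same control libraries for the call and for the comparison.

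**Figure D4:**
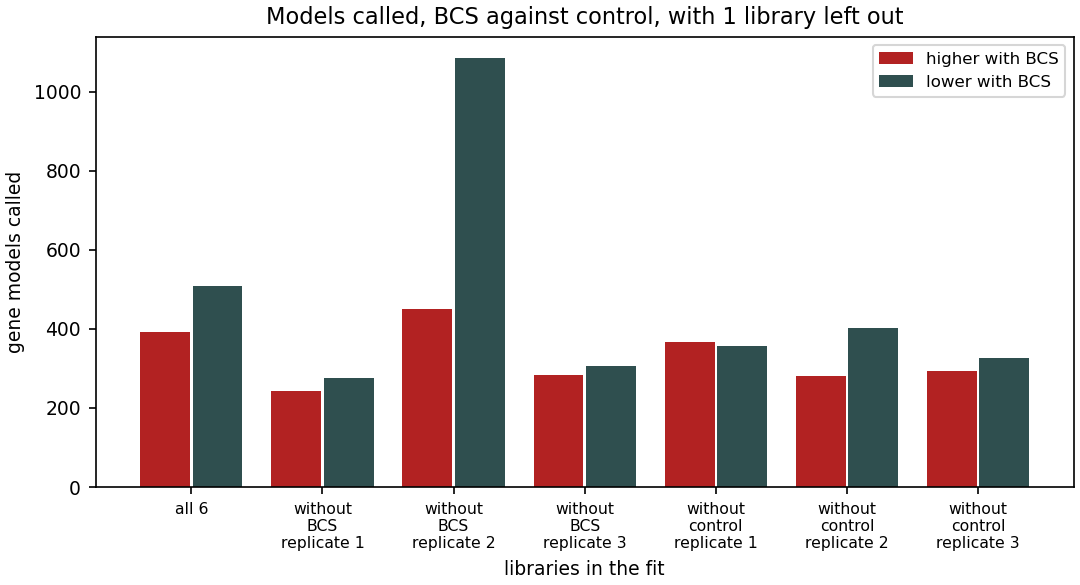
Number of gene models called higher and lower with BCS in the fit to all 6 libraries and in fits without 1 library. Leaving out BCS replicate 2 gives 451 rises and 1085 falls, against 391 and 509 with all 6 libraries, while leaving out any other library gives fewer calls.

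The number of calls therefore depended on the libraries used. It was 521 without BCS replicate 1 (6.84% of tested models) and 590 without BCS replicate 3 (7.74%), against 1536 without BCS replicate 2 (20.2%), of which rises were 29.4% in place of 43.4%. Without control replicates 1, 2 and 3 it was 722, 682 and 620 (9.48%, 8.95% and 8.14%). A fit that also took in the copper libraries, so that all 9 shared an estimate of spread, called 1322 models (17.3%). Of the 900 models, 848 were also called without BCS replicate 2, 514 without replicate 1 and 575 without replicate 3.

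Models with consecutive identifier numbers tended to be called together. Of 262 numbered models that rose and whose next number was also tested, 39 (14.9%) were followed by a model that rose, while 4.74% of all numbered models rose. Of 333 that fell, 57 (17.1%) were followed by a model that fell, while 6.06% of all numbered models fell. Pairs of consecutive numbers with opposite calls were fewer, at 21 against 96 pairs called the same way. At a distance of 2 numbers the shares were 7.87% for rises and 7.17% for falls, and at distances of 3, 4, 5 and 10 they lay between 2.69% and 8.92%. The log2 fold changes of consecutive numbers correlated at r = 0.21 over 5782 pairs, and at r = 0.03 for a distance of 2. Mean levels correlated at r = 0.11 between consecutive numbers. Differences between libraries of the same group did so as well: the deviation of 1 library from the other two of its group correlated between consecutive numbers at r = 0.15 to 0.21 with BCS and at r = 0.15 to 0.19 in the control. These correlations are across models, which share libraries. Whether consecutive numbers lie next to each other in the genome is unstated in the sources, and an overlap of neighbouring models on the genome could not be examined.

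**Figure D5:**
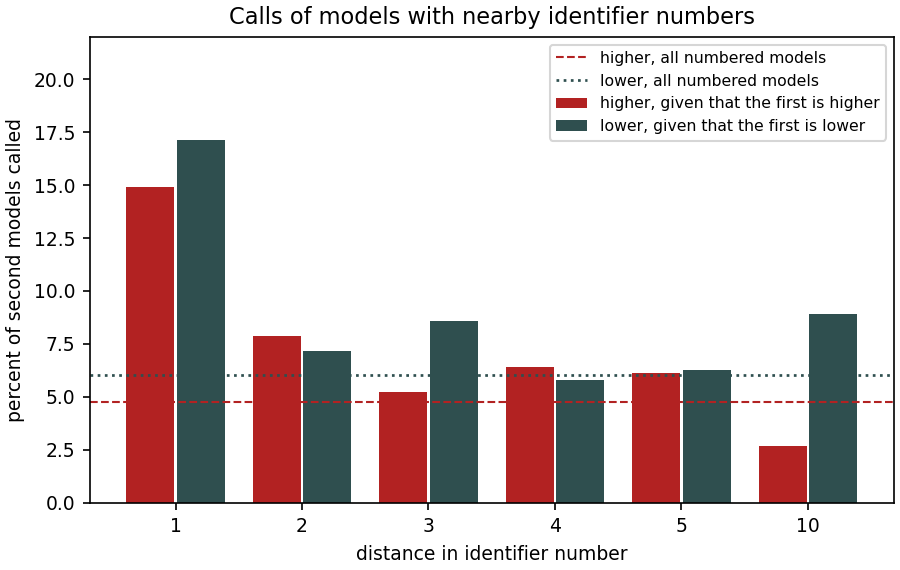
Percent of numbered models called higher (or lower) with BCS when the model a given distance earlier in identifier number was called the same way, for distances of 1 to 5 and 10; the dashed and dotted lines mark the shares among all 6290 numbered models. Only at a distance of 1 do both bars stand above 10%, at 14.9% and 17.1%.

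Runs of consecutive numbers called in the same direction held 71 of the rising and 104 of the falling models. Most were pairs, with 26 pairs of rises and 38 pairs of falls. There were 5 runs of 3 rises and 8 runs of 3 falls, and 1 run of 4 in each direction. The run of 4 rises had log2 fold changes of 2.44 to 6.75. Its models stood at 27.8 to 430 FPKM in BCS replicate 1, at 3.86 to 32.6 FPKM in replicate 2 and at 20.7 to 242.2 FPKM in replicate 3, against 0.0687 to 2.39 FPKM over the control libraries. BCS replicate 2 was thus the lowest BCS library of this run by a wide margin, yet above the controls. The run of 4 falls had log2 fold changes of -2.73 to -0.95, with 0.683 to 54.8 FPKM over the BCS libraries and 4.27 to 401.2 FPKM over the control libraries. Without BCS replicate 2, rises followed rises in 13.7% of cases, with 5.68% of numbered models higher, and falls followed falls in 21.4%, with 14.0% lower.

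Levels in the copper libraries are given beside these values as each group's own, since copper and BCS are compared with the same controls. Over the 391 models raised by BCS, the mean FPKM had a median of 37.8 with BCS, 4.84 with copper and 5.75 in the control. Over the 509 models lowered by BCS, the medians were 9.19 with BCS, 34.7 with copper and 37.4 in the control. The median log2 difference between copper and control was -0.16 for the rises and -0.003 for the falls, beside 0.12 over all tested models. Single models differed in both directions, with quartiles of -0.55 and 0.17 for the rises and of -0.59 and 0.50 for the falls, beside -0.15 and 0.40 over all tested models. Both sets were chosen because the BCS libraries differed from these controls, so their levels with copper being nearer to the control follows in part from the choice.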

How the data were processed

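The authors deposited 1 table of FPKM values with 1 column per library and no pooled replicates. The tools listed, per the submitters' processing notes, are DESeq 1.18.0, HTSeq 0.6.1, TopHat2 2.0.12 and Bowtie2 2.2.3, without their roles. The build in those notes is of mouse, so the fungal genome and annotation behind the table are not known from these sources. Per the labels' protocols, Trizol was used for RNA and a NEBNext Ultra kit for libraries.

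Whole reads, library totals and model lengths were recovered from the steps of the FPKM values (100% of values above 0 were whole within 0.01 reads). Lengths of numbered models with at least 50 reads were multiples of 3 in 99.9% of cases and are coding lengths. For models with fewer reads, the smallest length that gave whole reads was taken and was not checked. FPKM values are not counts, so a mean-variance trend fit with limma 3.58.1 (R 4.3.3) was made on log2(FPKM + 1) of the 6 libraries, with two-sided p-values adjusted by the Benjamini-Hochberg method over all 7620 models and a threshold of 0.05. This scale understates changes of weak models. The steps were tested on simulated data.

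The named models were the 2 largest called rises and the 2 largest called falls without overlap between groups and with a mean of at least 5 FPKM in the higher group, plus the most abundant model. Gene lists could not be filled, for want of names. The comparison, the classes and the rules were chosen with earlier results of these data known. Alternatives covered the libraries in the fit, pseudocount, filter, scaling, spread, pairing and each library left out; voom on the recovered reads and the neighbour shares without BCS replicate 2 were added after seeing the data.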

Additional observations from a re-analysis of the deposited data

How the results depend on the processing

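The 4 named changes stayed past the threshold under each alternative run, with limma adjusted p-values of at most 5.0e-04. Their direction was fixed by the choice of models whose groups do not overlap. With all 6 libraries kept, the alternatives gave 133 values. Some of these could not move, so their number is no measure of stability. The count without overlap stayed at 2077 where only the fit or the pseudocount changed, and the median was the same in several fits. Of the 133 values, 129 were counts within 1.5 times of the main one, medians within the spread between libraries, or tested values on the same side of the threshold. The others came from giving each library a weight (0.258 for BCS replicate 2 and 0.79 to 2.87 for the rest). That called 2142 models, 729 higher and 1413 lower, and 1246 changed at least 2-fold. Fitting all 9 libraries together called 1322 models, 571 higher and 751 lower, and 896 of the 900 models were among them. Over the other alternatives, the count lay between 733 (at least 5 FPKM in 3 libraries) and 1004 (quantile normalization), and voom on the recovered reads called 878. Rises made up 48.5% of calls on the TPM scale and 42.7% after median-of-ratios scaling. Leaving out 1 library gave 521 to 1536 calls, 244 to 451 rises, 277 to 1085 falls, 521 to 1118 changes of at least 2-fold and 2377 to 4237 models without overlap. It gave median log2 fold changes of -0.20 to 0.01, and differences in the TPM share of the 10 most abundant models of -5.53 to -3.10 percentage points. Falls numbered 277, 1085 and 306 without BCS replicates 1, 2 and 3, and 327 without control replicate 3. Each of these fits leaves a group of 2 libraries; the cause of the differences among them was not tested. For the most abundant model the adjusted p lay between 0.12 and 0.74. With the replicate number as a block, 906 models were called, 809 of them among the 900. The deviations of same-numbered BCS and control libraries correlated at r = 0.21, -0.01 and -0.19, and those of unlike-numbered ones at -0.31 to 0.34. With 3 libraries per group, these values cannot decide whether the numbers pair the libraries. Of the 900 calls, 799 were at least 2-fold, and smaller differences were seldom called with 3 libraries per group.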

Other observations

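A few models were high in 1 library alone, with at least 5 FPKM there and at least 8 times the value of every other of the 6 libraries. There were 4 such models in BCS replicate 1, 3 in BCS replicate 3 and none in BCS replicate 2, against 3 in control replicate 1, 2 in control replicate 2 and none in control replicate 3. The strongest stood at 432.8 FPKM in BCS replicate 1 and at most 6.48 FPKM elsewhere. In BCS replicate 3, the 2 numbered models of this kind had consecutive identifier numbers. The highest of the 3 models of this library reached 112.3 FPKM, with at most 1.60 FPKM in any other of the 6 libraries. The converse, a value at least 8 times below every other library with all others at 5 FPKM or more, was found in 2 models of BCS replicate 1 and 1 of BCS replicate 3, against 4 of control replicate 3. Of the 12 models high in 1 library alone, 1 was called in the comparison, while 11.8% of all tested models were called. A high value in 1 library alone widens the spread within its group, so nothing is read from this count.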
